A study of Mus musculus with 30 samples.

Results

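The erythroid genes described here were 9 genes of the red cell lineage, namely the adult haemoglobin chain genes Hbb-bs, Hbb-bt, Hba-a1 and Hba-a2, the haem enzyme gene Alas2, the membrane gene Slc4a1, the receptor gene Epor and the transcription factor genes Klf1 and Gata1. They were chosen by name, by matching Ensembl identifiers in the table of raw read counts to mouse symbols, and were 9 of the 43629 genes counted. Each was followed as CPM, counted reads scaled to a common library size with TMM factors, in all 30 libraries. All 9 passed the filter on low counts in each comparison.

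Each library came from the fracture callus of 1 male C57BL/6J mouse, aged 20 weeks after acclimation, whose tibia had been cut in the shaft and held by an intramedullary nail. Mice with diet-induced obesity (DIO), fed a high-fat diet until harvest, gave calli on d3, d5, d7 and d10 after fracture and later on d14 and d21, and lean mice, fed a low-fat diet, on the first 4 of these days, with 3 mice in each of the 10 groups. Late lean calli (d14, d21) were not analysed here, and those days have no comparison between diets. The methods describe the removal of soft tissue around the callus and a harvest that avoided intact bone, and they describe no perfusion of the animals and no lysis of red cells before RNA extraction. Between 13247122 and 26365620 reads were counted per library (median 16854427), and the summed level of 5 callus tissue genes (Col1a1, Col2a1, Sox9, Ibsp and Bglap) lay between 13159 and 111135 CPM.

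In adult mice red cells form in the bone marrow and the spleen, where erythropoietin acts through its receptor on committed progenitors and keeps them alive. The transcription factor GATA1 then drives the lineage together with KLF1, a factor that binds CACCC boxes and switches on adult globin genes. Precursors fill with haemoglobin, lay down the red cell membrane and lose the nucleus. The resulting reticulocytes enter the blood with globin mRNA still present, while transcripts of the transcription factors belong to nucleated precursors. In bulk RNA, fewer cells of a type and less RNA per cell cannot be told apart, and blood, marrow and cells of the callus itself were sequenced together.

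On GRCm38 the beta-chain genes Hbb-bs (ENSMUSG00000052305, chr7:103826534-103828096, minus strand) and Hbb-bt (ENSMUSG00000073940, chr7:103812524-103813996, minus strand) lie in 1 cluster. The alpha-chain genes Hba-a1 (ENSMUSG00000069919, chr11:32283511-32284465, plus strand) and Hba-a2 (ENSMUSG00000069917, chr11:32296489-32297298, plus strand) lie in another. Alas2 (ENSMUSG00000025270, chrX:150547375-150570638, plus strand) and Gata1 (ENSMUSG00000031162, chrX:7959260-7978071, minus strand) are X-linked. Slc4a1 (ENSMUSG00000006574) is at chr11:102348824-102366203 on the minus strand, Epor (ENSMUSG00000006235) at chr9:21958897-21963506 on the minus strand and Klf1 (ENSMUSG00000054191) at chr8:84901928-84905291 on the plus strand. The members of each globin pair resemble each other in sequence. Of all 53-base windows of exon sequence, 71.8% of those in Hba-a1 and 88.7% of those in Hba-a2 also occurred in the other gene, against 53% in Hbb-bs and 58.1% in Hbb-bt, so the split of reads within a pair is uncertain. The same share was 11.2% in Alas2 and 0 in Slc4a1, Epor, Klf1 and Gata1. Alas2 also overlaps Apex2 and Mir3620 on the opposite strand over 15.5% of its exon bases, and whether counting used the strand is not given in the sources used here.

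RefSeq promoter windows on GRCm38.p6, 250 bases upstream of the annotated start, were read for 8 of the 9 genes (all but Slc4a1). They are shown for 1 gene of each globin pair, the haem enzyme and KLF1 itself because the genes moved together in these libraries. The capitals mark GATAA or its reverse complement TTATC, the core of a GATA site, and CACCC or its reverse complement GGGTG, the core of a CACCC box. The Hbb-bs window is chr7:103827929-103828178 (minus strand), the Hba-a1 window chr11:32283422-32283671 (plus), the Alas2 window chrX:150547167-150547416 (plus) and the Klf1 window chr8:84901732-84901981 (plus), each written 5′ to 3′.
Hbb-bs: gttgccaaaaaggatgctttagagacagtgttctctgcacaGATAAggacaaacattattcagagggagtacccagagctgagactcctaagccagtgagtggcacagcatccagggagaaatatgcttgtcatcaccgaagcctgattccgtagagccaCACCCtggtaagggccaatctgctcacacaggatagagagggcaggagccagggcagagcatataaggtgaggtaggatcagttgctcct
Hba-a1: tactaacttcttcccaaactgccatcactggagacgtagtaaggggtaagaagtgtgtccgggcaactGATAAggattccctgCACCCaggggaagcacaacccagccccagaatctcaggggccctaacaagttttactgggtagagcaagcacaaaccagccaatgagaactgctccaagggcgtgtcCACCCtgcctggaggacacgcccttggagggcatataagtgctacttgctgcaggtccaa
Alas2: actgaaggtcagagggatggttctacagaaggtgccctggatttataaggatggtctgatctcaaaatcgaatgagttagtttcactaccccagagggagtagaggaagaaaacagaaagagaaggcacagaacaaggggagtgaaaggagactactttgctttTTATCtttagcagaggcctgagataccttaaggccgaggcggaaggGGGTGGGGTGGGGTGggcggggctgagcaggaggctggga
Klf1: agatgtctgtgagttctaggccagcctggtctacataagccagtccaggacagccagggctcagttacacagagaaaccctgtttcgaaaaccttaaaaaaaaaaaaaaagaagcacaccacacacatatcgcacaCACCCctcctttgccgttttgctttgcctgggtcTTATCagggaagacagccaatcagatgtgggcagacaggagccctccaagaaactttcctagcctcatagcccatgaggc
GATAA on either strand occurred in 7 of the 8 windows, all but that of Gata1, and in 22.6% of the 32851 windows of the same length in the table. CACCC on either strand occurred in 8 of 8 and in 52.0% of all windows, and both occurred in 7 of 8 and in 10.1% of all windows. Counted from the start of transcription, the GATAA of Hbb-bs began at −209 and its CACCC at −90, and in Hba-a1 the GATAA began at −182 and the CACCC copies at −167 and −60. In Klf1 TTATC began at −80 and CACCC at −114, and in Alas2 TTATC began at −86 and 3 adjacent GGGTG copies at −40, −35 and −30. The Hba-a1 and Hba-a2 windows shared an unbroken run of 247 bases, so they are not separate cases. Such matches describe the letters of these windows and do not show that a factor was bound.

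All 9 genes were highest and lowest in the same groups. In each of them the mean was highest in DIO calli of d21, second highest in DIO calli of d14 and next highest in lean calli of d7, and it was lowest in DIO calli of d5 and second lowest in DIO calli of d3. The ratio of the highest to the lowest group mean was 37.0 in Hba-a1, 61.9 in Hbb-bs, 64.2 in Hba-a2, 87.2 in Hbb-bt, 73.4 in Alas2, 270.3 in Slc4a1, 50.2 in Epor and 75.4 in Gata1. For Klf1 it was 425, a value that rests on a group with 2 libraries at 0 counts. Most neighbouring groups in the order overlapped. Of the 9 neighbouring pairs, DIO d21 and DIO d14 did not overlap in any of the 9 genes (18.6% of all genes were higher on d21 without overlap), DIO d3 and DIO d5 did not overlap in 7 of them (all but Slc4a1 and Gata1, where 12.9% of all genes were lower on d5 without overlap), and the other 7 pairs overlapped in each gene.

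**Figure D1:**
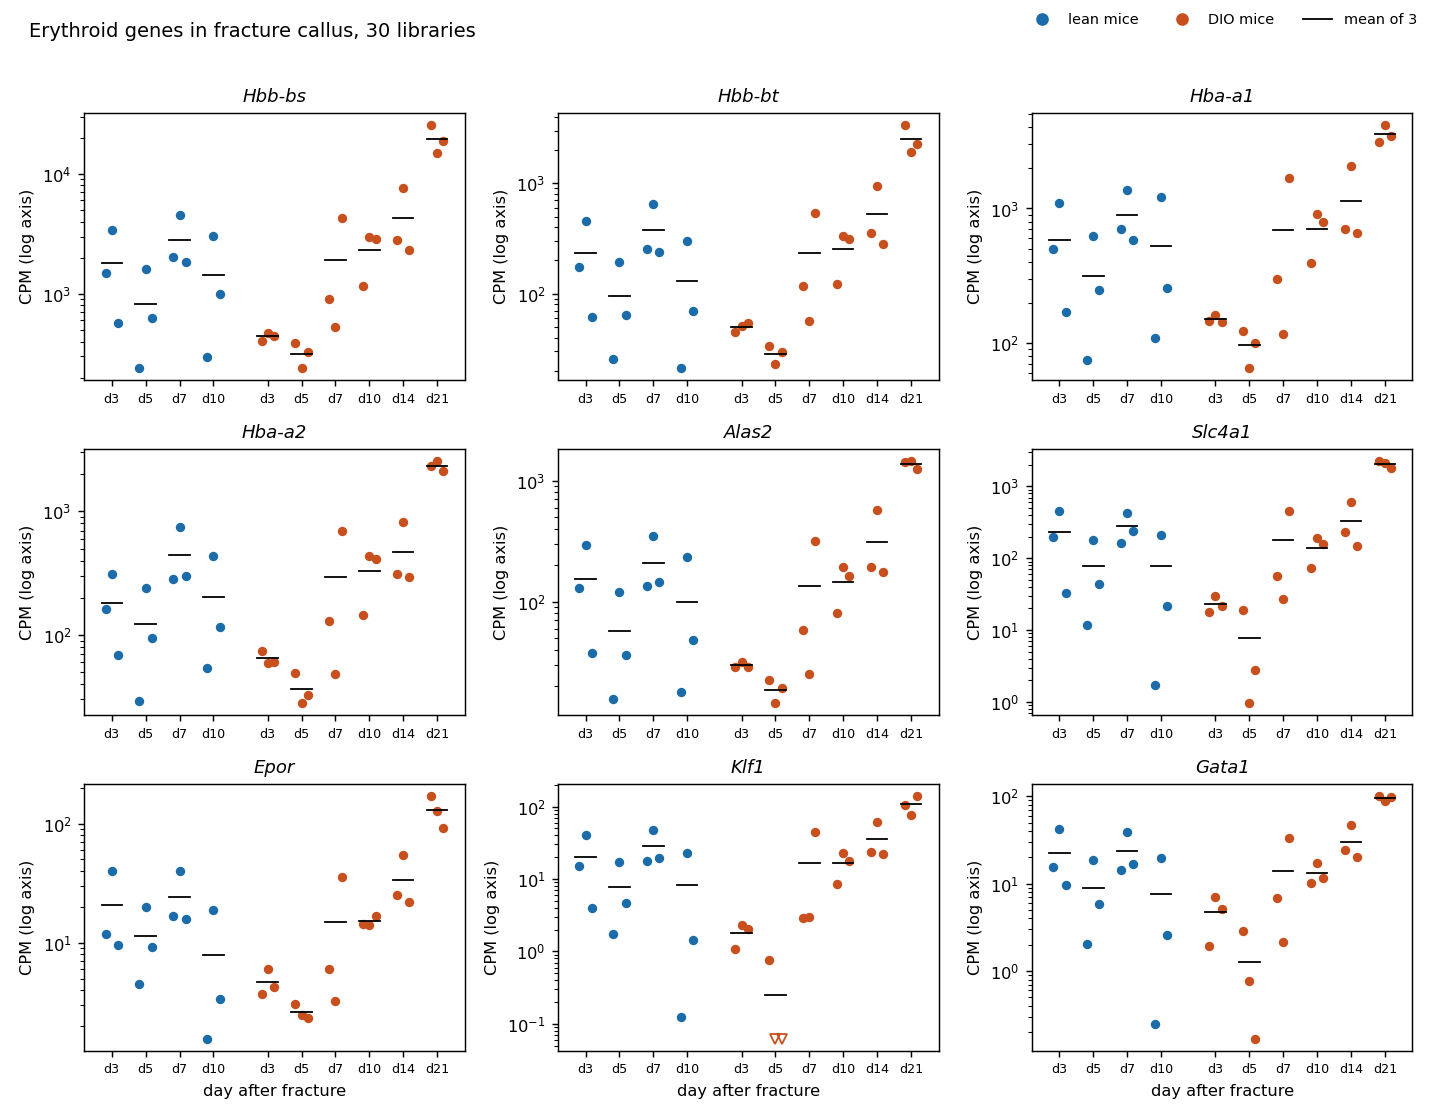
CPM of each erythroid gene (vertical, log axis) by diet and day after fracture (horizontal), with 1 point per mouse, a black line at the mean of 3 mice, and an open triangle at the foot of the panel where a library had 0 counts. In all 9 panels the 3 DIO d21 calli lie above the other 27.

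Hbb-bs, an adult beta-globin chain, had the highest mean of the 9 per kilobase of exon in each group. Its level was 1480, 3387 and 573 CPM in the 3 lean calli of d3, 240, 1612 and 627 on d5, 2045, 4496 and 1850 on d7 and 297, 3030 and 995 on d10. In DIO calli it was 407, 468 and 447 CPM on d3, 387, 242 and 324 on d5 and 899, 527 and 4272 on d7. It reached 1170, 2963 and 2846 CPM on d10, 2806, 7651 and 2325 on d14 and 25326, 14842 and 18786 on d21. The DIO calli of d3 and d5 were low and close together, lean groups were wide, and the lowest d21 callus was above the highest of all other libraries, the second DIO callus of d14. The group means were 441 ± 31 (SD, n = 3) on d3, 318 ± 72.8 on d5, 4261 ± 2946 on d14 and 19652 ± 5295 CPM on d21 in DIO mice. Hbb-bt, the second adult beta chain, ran parallel to it at 531 ± 366 CPM in DIO d14 and 2506 ± 739 CPM in DIO d21 calli.

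Together the 4 haemoglobin genes took 0.0720%, 0.0794% and 0.0738% of all counted reads in the DIO calli of d3 and 0.0597%, 0.0366% and 0.0498% on d5. In DIO calli the share was then 0.134%, 0.0685% and 0.675% on d7, 0.18%, 0.432% and 0.417% on d10, 0.444%, 1.19% and 0.357% on d14, and 3.45%, 2.33% and 2.91% on d21. The mean share on d21 was 2.90 ± 0.560% (SD, n = 3), against 0.664 ± 0.458% on d14. Lean calli held 0.242%, 0.556% and 0.0912% on d3, 0.0397%, 0.279% and 0.104% on d5, 0.334%, 0.727% and 0.307% on d7, and 0.0374%, 0.471% and 0.132% on d10. Lean mice of the same day were far apart in this share, and the DIO mice of d3 and of d5 were close together.

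**Figure D2:**
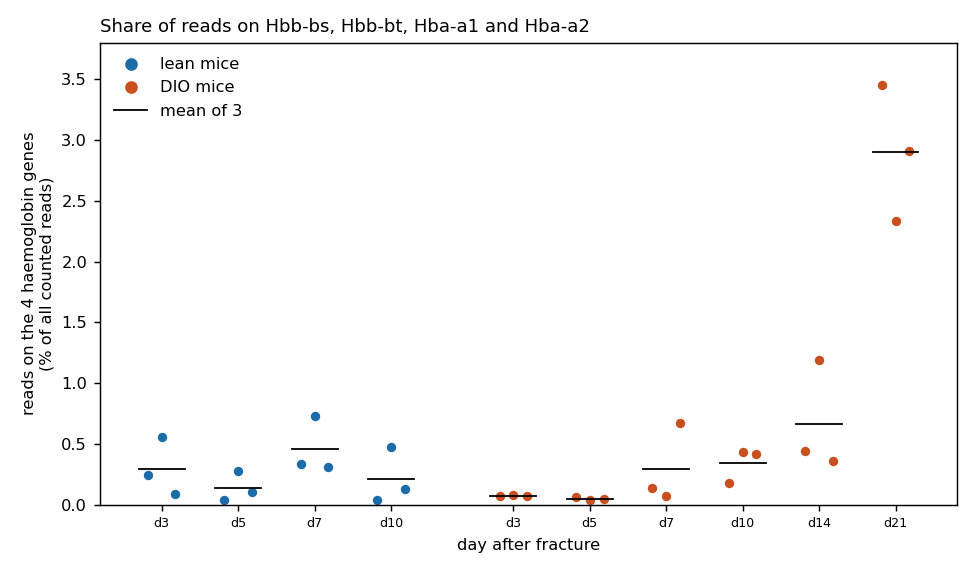
Share of all counted reads that fell on the 4 haemoglobin genes (vertical, percent, from 0) by diet and day (horizontal), 1 point per mouse and a line at the mean of 3. The DIO d21 calli stand at 2.33% to 3.45%, and the highest other library, a DIO d14 callus, at 1.19%.

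The alpha chains Hba-a1 and Hba-a2 followed the beta chains. In DIO calli Hba-a1 was at 704, 2055 and 657 CPM on d14 and at 3116, 4130 and 3469 CPM on d21, and Hba-a2 at 313, 814 and 293 CPM and at 2332, 2575 and 2127 CPM. The lowest values of both genes were in DIO calli of d5, at 123, 65.5 and 101 CPM for Hba-a1 and at 49, 27.9 and 32.5 CPM for Hba-a2. For both genes the d21 calli were above all other libraries.

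The composition of the haemoglobin reads was compared across libraries as a description, without a test. Hba-a2 made up 42.8%, 38.4% and 38.0% of the alpha-chain reads in the DIO d21 calli, and between 22.4% and 35.2% in the other 27 libraries. The 3 d21 libraries therefore lay outside the range of the others, with the reservation that these near-identical genes share most of their windows. Alpha-chain reads per 100 beta-chain reads were 19, 40.0 and 26.6 on d21 and between 28.4 and 51.1 elsewhere, so 2 of the 3 d21 libraries were below the others and 1 was within them. Hbb-bt held between 6.54% and 12.5% of the beta-chain reads over the 30 libraries, with 10.7% to 11.6% on d21.

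Alas2 catalyses the first step of haem synthesis in red cell precursors. It was at 28.6, 31.5 and 29 CPM in DIO calli of d3, at 22.5, 14.4 and 19.3 on d5 and at 58.3, 25.4 and 320 on d7. On the later days it was at 80.3, 193 and 164 CPM on d10, 192, 570 and 177 on d14 and 1417, 1464 and 1250 on d21, the last group at 1377 ± 113 CPM (SD, n = 3). Lean calli held 130, 291 and 37.8 CPM on d3, 15.6, 121 and 36.2 on d5, 134, 347 and 146 on d7 and 17.9, 234 and 48.6 on d10. The gene kept pace with haemoglobin, since Alas2 reads per 1000 haemoglobin reads stayed between 33.8 and 62.4 (median 42.5) over the 30 libraries, while the haemoglobin share itself ran from 0.0366% to 3.45%.

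Slc4a1 encodes band 3, the anion exchanger that is the main protein spanning the red cell membrane. It stood at 229, 609 and 150 CPM in DIO calli of d14 and at 2287, 2126 and 1815 CPM on d21. Its lowest values were 0.955 and 2.76 CPM in 2 of the 3 DIO calli of d5 and 1.69 CPM in 1 lean callus of d10, while the third DIO d5 callus had 19.3 CPM. Relative to haemoglobin it was not constant. Slc4a1 reads per 1000 haemoglobin reads ran from 2.66 to 90.5, with 2.66 and 5.67 in those DIO d5 calli and 3.52 in that lean d10 callus. They were 67.0 to 90.5 on DIO d21, a range that overlapped those of lean d3 (38.0 to 87.9) and lean d7 (49.6 to 81.6).

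Epor encodes the erythropoietin receptor, which committed progenitors carry. Its level was 3.72, 6.07 and 4.24 CPM in DIO calli of d3, 3.03, 2.45 and 2.31 on d5, 5.98, 3.23 and 35.9 on d7, and 14.3, 14.1 and 16.8 on d10. On d14 it was 25, 54 and 21.9 CPM and on d21 171, 129 and 92.0 CPM. In lean calli it was 11.9, 40.3 and 9.60 CPM on d3, 4.53, 20.1 and 9.24 on d5, 16.8, 40.0 and 15.8 on d7 and 1.57, 18.8 and 3.36 on d10. All 3 DIO calli were below all 3 lean calli on d3 and on d5, and the diets overlapped on d7 and d10. The ligand gene Epo had 0 counts in all 30 libraries.

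Klf1, the CACCC-binding activator of adult globin genes, was the only one of the 9 with libraries at 0 counts. It was at 1.08, 2.30 and 2.06 CPM in DIO calli of d3, and on d5 at 0.759, 0 and 0 CPM, from 17, 0 and 0 reads. A count of 0 allows up to 0.183 and 0.173 CPM in those 2 libraries (3 counts, counting error only). DIO calli then held 2.90, 3.01 and 44.2 CPM on d7, 8.67, 23.1 and 17.8 on d10, 23.7, 61.6 and 22.2 on d14 and 106, 76.4 and 141 on d21. Lean calli held 14.9, 40.7 and 3.95 CPM on d3, 1.76, 17.3 and 4.60 on d5, 17.5, 47.9 and 19.5 on d7 and 0.125, 23.1 and 1.44 on d10, so that a lean d10 callus with 2 reads was as low as the DIO d5 calli. Both DIO d5 calli without Klf1 reads did have haemoglobin reads, at 0.0366% and 0.0498% of all reads. Klf1 reads per 1000 haemoglobin reads were 1.28, 0 and 0 in the DIO d5 calli and 0.261 and 1.00 in 2 of the lean d10 calli, against a median of 4.59 and a highest value of 7.74 over all 30.

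Gata1, the zinc finger factor that the lineage depends on, is also used by megakaryocytes, mast cells and eosinophils. It was at 1.92, 7.05 and 5.14 CPM in DIO calli of d3, 2.86, 0.776 and 0.169 on d5, 6.92, 2.13 and 33.3 on d7, and 10.3, 17.3 and 11.7 on d10. On d14 the values were 24.3, 46.3 and 20.0 CPM and on d21 101, 87.2 and 98.3 CPM. In lean calli it was at 15.6, 41.7 and 9.70 CPM on d3, 2.06, 18.8 and 5.88 on d5, 14.3, 38.9 and 16.8 on d7 and 0.251, 19.8 and 2.58 on d10. Gata1 reads per 1000 haemoglobin reads ranged from 0.347 to 11.1.

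Levels of different genes were compared only per kilobase of exon. In DIO calli of d21 Hbb-bs was at 25588 ± 6895 CPM per kilobase (SD, n = 3), Hba-a1 at 4399 ± 634, Hbb-bt at 3565 ± 1051 and Hba-a2 at 3515 ± 336. On the same scale Alas2 was at 573 ± 46.9, Slc4a1 at 424 ± 49, Klf1 at 70.3 ± 21.0, Epor at 65.6 ± 19.8 and Gata1 at 39.2 ± 2.97 CPM per kilobase. Haemoglobin chains therefore led, followed by the haem enzyme and band 3, and the receptor and the transcription factors were lowest.

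**Figure D3:**
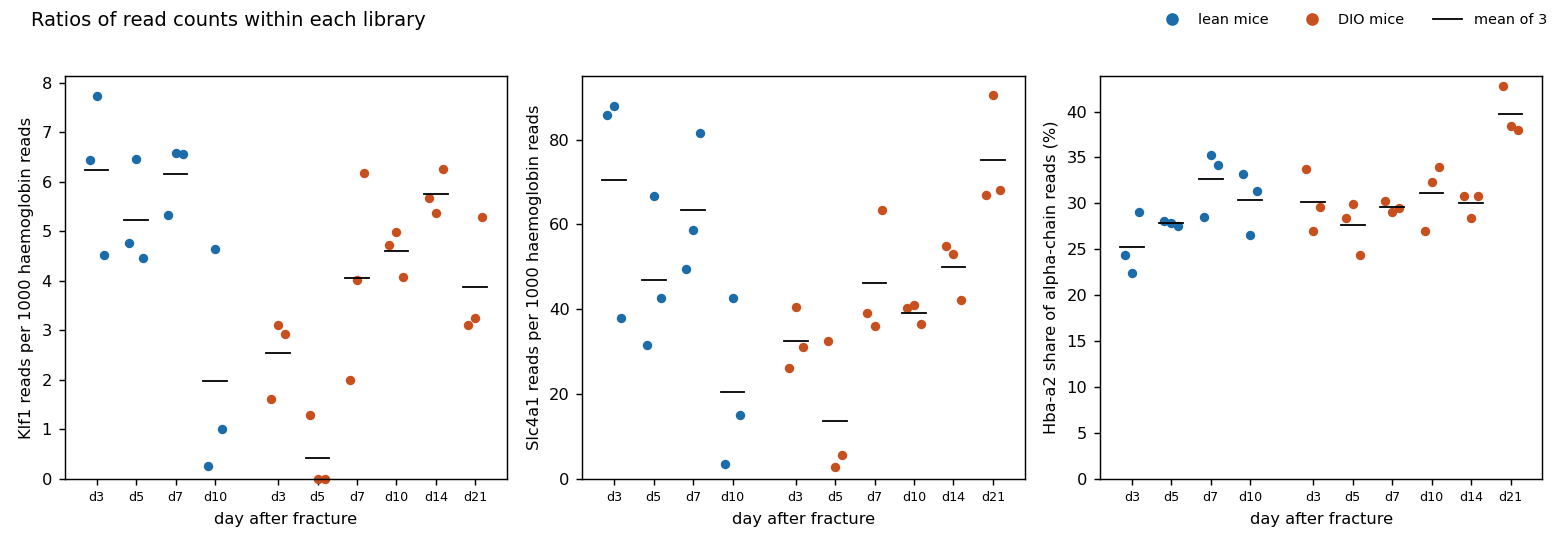
Reads of Klf1 per 1000 haemoglobin reads, reads of Slc4a1 per 1000 haemoglobin reads, and the percentage of alpha-chain reads on Hba-a2 (vertical axes, each from 0) by diet and day (horizontal), 1 point per mouse and a line at the mean of 3. Klf1 is at 1.28, 0 and 0 in the DIO d5 calli and at 0.261 and 1.00 in 2 lean d10 calli. Slc4a1 is at 2.66 and 5.67 in 2 DIO d5 calli and at 32.6 in the third, and at 3.52 in 1 lean d10 callus. The Hba-a2 percentage of the 3 DIO d21 calli, at 38.0% to 42.8%, is above that of all others.

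In most groups the mice differed in the whole set rather than in single genes. In 7 of the 10 groups the same mouse had the highest value of all 9 genes. These were the second mouse in lean d3, d5, d7 and d10 and in DIO d14, the first in DIO d5 and the third in DIO d7. In 4 groups the same mouse was also lowest for all 9, namely the third in lean d3 and DIO d14 and the first in lean d5 and d10. In DIO d3, d10 and d21 no mouse was highest for all 9, and in DIO d21 the first was highest in 5. The highest mouse exceeded the lowest by a median over the genes of 6.44-fold in lean d3, 8.22-fold in lean d5, 2.62-fold in lean d7 and 13.1-fold in lean d10. In DIO mice this spread was 1.25-fold on d3, 1.76-fold on d5, 14.2-fold on d7, 2.53-fold on d10, 3.13-fold on d14 and 1.33-fold on d21. The p-values below set each difference between groups against an estimated spread between mice. For comparisons of days, that spread was estimated from all libraries of the diet, not only from the days compared.

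Some genes outside the 9 shared their profile across the 30 libraries. Measured as the root-mean-square distance between a gene's standardized log2 CPM and the mean standardized profile of the 9 genes, the closest of 14798 genes included Kel (0.168), Tspan33 (0.176), Add2 (0.178), Rhag (0.179), Pkhd1l1 (0.181), Rhd (0.190), Mylk3 (0.194) and Slc38a5 (0.195). The median distance of all genes was 1.41, and the 9 genes' own distances ran from 0.132 for Hbb-bt to 0.286 for Gata1. Rhag and Rhd (Rh complex), Kel (a blood group antigen) and Add2 (beta-adducin of the membrane skeleton) are red cell membrane genes.

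Among the comparisons of successive days, DIO d21 against d14 was the only one in which erythroid genes passed the test. The edgeR quasi-likelihood test, with Benjamini-Hochberg adjustment over all genes tested, called 5 of the 9 genes higher on d21, where 10.6% of all genes were called higher. Hbb-bs was higher by 2.2 ± 0.62 (SE) on the log2 scale (adjusted p = 0.0205), Hbb-bt by 2.24 ± 0.62 (adjusted p = 0.0195), Hba-a2 by 2.31 ± 0.67 (adjusted p = 0.0248), Alas2 by 2.14 ± 0.64 (adjusted p = 0.0282) and Epor by 1.96 ± 0.56 (adjusted p = 0.0235). The other 4 missed the threshold of 0.05 with differences of 1.65 ± 0.66 for Hba-a1 (adjusted p = 0.0853), 2.65 ± 0.92 for Slc4a1 (0.0517), 1.59 ± 0.77 for Klf1 (0.152) and 1.66 ± 0.69 for Gata1 (0.0960). DESeq2 also called 5 (13% of all genes called higher) and gave no adjusted p for Alas2. In all 9 the d21 calli lay above the d14 calli without overlap, as did 18.6% of all genes, and the median difference of the 9 was 2.14 against −0.03 for all genes. The count depended on single mice: it was 0 without the first or the third DIO d14 callus or the first DIO d21 callus, 7 without the second DIO d14 callus (18% of all genes in either direction), 8 without the second DIO d7 callus (20.5%) and 9 without the third DIO d7 callus (21.2%). It was 1 in a fit of all 30 libraries and 8 with no filter on low counts. The share of all genes called under these settings is not given here. Leaving out the first or the third d14 callus or the first d21 callus also lowered the share called among all genes, from 19.6% in either direction to 10.1%, 9.17% and 7.41%.

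Other genes of red cell formation, taken from 8 lists written for this work, were called in the same comparison mainly in 3 lists. Of all genes, 10.6% were called higher there. Haem synthesis had 12 of 12 tested genes higher, with a median log2 difference of 1.57. The last enzyme of the pathway, Fech, went from 136 ± 45.2 CPM on d14 to 418 ± 13.3 CPM on d21 (log2 difference 1.62 ± 0.24, adjusted p = 3.72e-04), and Fam210b (1.51), Cpox (1.69) and Urod (1.45) were also among the 4 with the smallest adjusted p. Of the red cell membrane and its skeleton 13 of 17 were higher (median 2.13), led by Gypc (1.29), Xk (1.89), Sptb (2.09) and Epb41 (2.03), the last of which went from 139 ± 61 to 566 ± 40.0 CPM. Terminal maturation had 13 of 15 higher (median 1.87), led by Bnip3l (1.12), which serves the clearance of mitochondria, Tent5c (2.30), Mkrn1 (1.72) and Bpgm (1.87), a bisphosphoglycerate enzyme that tunes oxygen release, at 113 ± 63.1 and 412 ± 13.7 CPM.

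The lists on regulation and iron were called less completely, without a test of that difference. Of 12 erythroid transcription factors other than Klf1 and Gata1, 3 were higher, the GATA1 cofactor gene Zfpm1 (2.05), Lmo2 (1.14) and Tal1 (1.47), and the next was Bcl11a, a repressor of embryonic globin genes (1.05, adjusted p = 0.0641). Erythropoietin signalling had 3 of 11 higher, Pim1 (1.80), Bcl2l1 (1.59), which protects maturing precursors from death, and the receptor-bound kinase gene Jak2 (0.52), with Lyn next (adjusted p = 0.0606) and a median over the list of 0.38. Iron uptake had 2 of 5 higher, the transferrin receptor genes Tfr2 (1.16) and Tfrc (0.85). Among other globins Hbq1b (2.62, adjusted p = 0.0349) was 1 of 2 that passed the filter. Of 12 genes of haem and haemoglobin clearance, 0 were called in either direction by edgeR, with 2 at an unadjusted p under 0.05 and 1 called by DESeq2, and haptoglobin (Hp) had the smallest adjusted p, at 0.0580 with a difference of 0.86. Over the 8 lists 47 of 86 tested genes were higher (10.6% of all genes), 0 were lower and the median was 1.29. The count was 27 without the third and 28 without the first DIO d14 callus.

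Markers of other blood cells were higher in the same d21 calli, where 10.6% of all genes were called higher. All 5 markers of neutrophil precursors of the marrow were called higher, with summed levels of 431, 711 and 466 CPM on d14 and 2090, 1641 and 1408 CPM on d21. All 5 genes of mature neutrophil granules were higher as well (3683, 7192 and 2126 CPM against 26717, 10581 and 13982 CPM), as were 2 of 6 markers of B-cell precursors, Igll1 and Vpreb1 (152, 284 and 220 CPM against 400, 402 and 552 CPM). The callus tissue genes summed to 33745, 22181 and 44362 CPM on d14 and to 13159, 25271 and 16162 CPM on d21, with Sox9 (−1.89) and Ibsp (−1.27) called lower. Platelet and megakaryocyte genes summed to 280, 475 and 168 CPM and to 495, 342 and 495 CPM, with 0 of 9 called, eosinophil genes to 148, 352 and 112 CPM and to 677, 382 and 644 CPM, with 0 of 3 called, and skeletal muscle genes to 6676, 17673 and 3218 CPM and to 249, 9185 and 1613 CPM, with 0 of 4 called. At an unadjusted p under 0.05 these 3 lists had 0, 2 and 1 genes, and DESeq2 called 0 in each. Of mast cell, endothelial and osteoclast markers and of Ptprc, a marker of leukocytes, 0 of 6, 0 of 4, 0 of 3 and 0 of 1 were called by edgeR, with 1, 0, 2 and 0 at an unadjusted p under 0.05 and 1, 0, 1 and 0 called by DESeq2. Of 4 genes of haematopoietic progenitors Kit was higher and Cd34 lower. The part of marrow, blood and callus tissue in the difference of the erythroid genes was not tested.

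**Figure D4:**
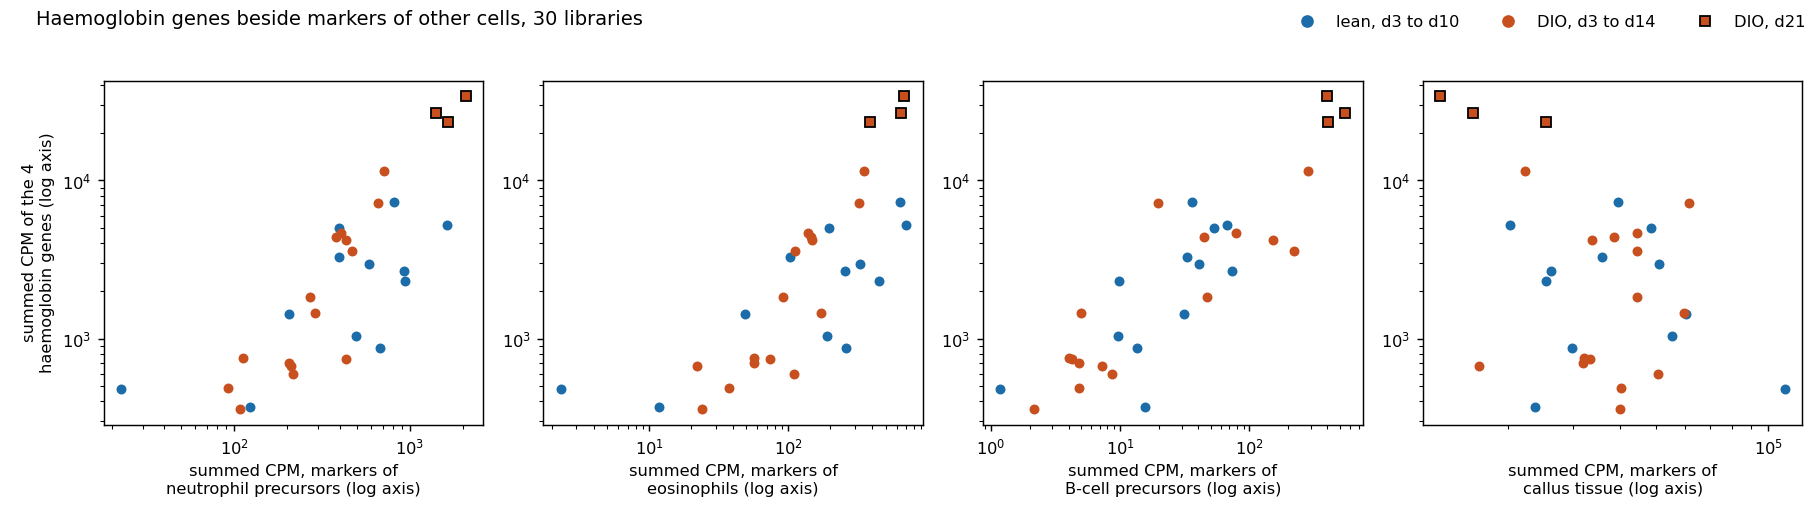
Summed CPM of the 4 haemoglobin genes (vertical, log axis) against summed CPM of the markers of neutrophil precursors, eosinophils, B-cell precursors and callus tissue (horizontal, log axes), 1 point per library, with DIO d21 calli as outlined squares. The d21 calli are highest in haemoglobin and lie at 1408 to 2090 CPM of neutrophil precursor markers, a range that 1 lean d3 callus (1617 CPM) shares, and at 13159 to 25271 CPM of callus tissue genes.

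Over all DIO days, the erythroid genes differed in a test of any difference between the 6 days. It called 9 of 9, with adjusted p-values from 2.22e-06 for Hbb-bt to 5.38e-05 for Hba-a1, where 59.1% of all genes were called. DESeq2 called 8 (53.6% of all genes) and gave no adjusted p for Alas2. In the steps from 1 day to the next up to d14, edgeR called 0 of 9.

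From d3 to d5 the fitted differences of all 9 genes in DIO mice were below 0, from −0.47 in Hbb-bs to −2.63 in Klf1, and 7 of them were lower in each d5 callus than in each d3 callus (12.9% of all genes). By edgeR 0 were called (1.68% of all genes in either direction), with Gata1 alone at an unadjusted p under 0.05 (6.16% of all genes in this direction), and DESeq2 called 0. In the same step edgeR called 2 of the 86 tested genes of the erythroid lists, against 1.68% of all genes. Both were higher, namely the iron exporter gene Slc40a1 (1.39) and the signalling inhibitor gene Socs2 (0.71).

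From d5 to d7 all 9 had differences above 0 in DIO mice, of 2.58 ± 0.63 for Hbb-bs, 3.04 ± 0.65 for Hbb-bt, 2.84 ± 0.67 for Alas2, 4.52 ± 1.02 for Slc4a1, 2.53 ± 0.63 for Epor and 5.82 ± 1.14 on the log2 scale for Klf1, the last resting on 17, 0 and 0 reads on d5. edgeR called 0 of 9 (0.0177% of all genes), with adjusted p-values of 0.0544 to 0.0956. An unadjusted p under 0.05 in this direction was found for 9 of 9 (8.51% of all genes), and DESeq2 called 8 (1.5%). With no filter on low counts edgeR called 9, a setting for which the share of all genes is not given here. The groups did not overlap in 6 of the 9 (9.30%), and the third DIO d7 callus stood well above the other two in all 9. Without the second DIO d7 callus all 9 were called (1.35% of all genes in either direction), without the second DIO d14 callus 2 (0.264%), and without the first DIO d5 or the first DIO d10 callus 1 each (0.0863% and 0.212%). Of the 86 tested genes of the 8 lists edgeR called 0 here, with 39 at an unadjusted p under 0.05, and DESeq2 called 18. In the same d7 calli the neutrophil precursor markers summed to 288, 113 and 657 CPM, after 216, 107 and 92.6 CPM on d5, so the callus with most haemoglobin also had most of these markers, and their part was not tested.

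From d7 to d10 the differences lay between −0.35 for Slc4a1 and 0.29 for Hbb-bs, and 0 were called by edgeR and DESeq2 (13% of all genes by edgeR), with 0 at an unadjusted p under 0.05. Without the third DIO d7 callus 7 of 9 were called, and 14.3% of all genes. With all libraries, edgeR called 3 higher and 4 lower of the 86 tested genes of the erythroid lists, against 13% of all genes. Those higher were the transferrin receptor gene Tfrc (1.21), the transferrin gene Trf (0.97) and Cish (1.44) of erythropoietin signalling. Those lower were the ferrireductase gene Steap3 (−0.98), Pim1 (−1.01) and Socs3 (−0.84) of erythropoietin signalling and the haem oxygenase gene Hmox1 (−0.72). From d10 to d14 the differences were 0.52 to 1.22, 0 were called by either tool (0.759% by edgeR), 0 had an unadjusted p under 0.05, and Epor and Gata1 did not overlap (14% of all genes).

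**Figure D5:**
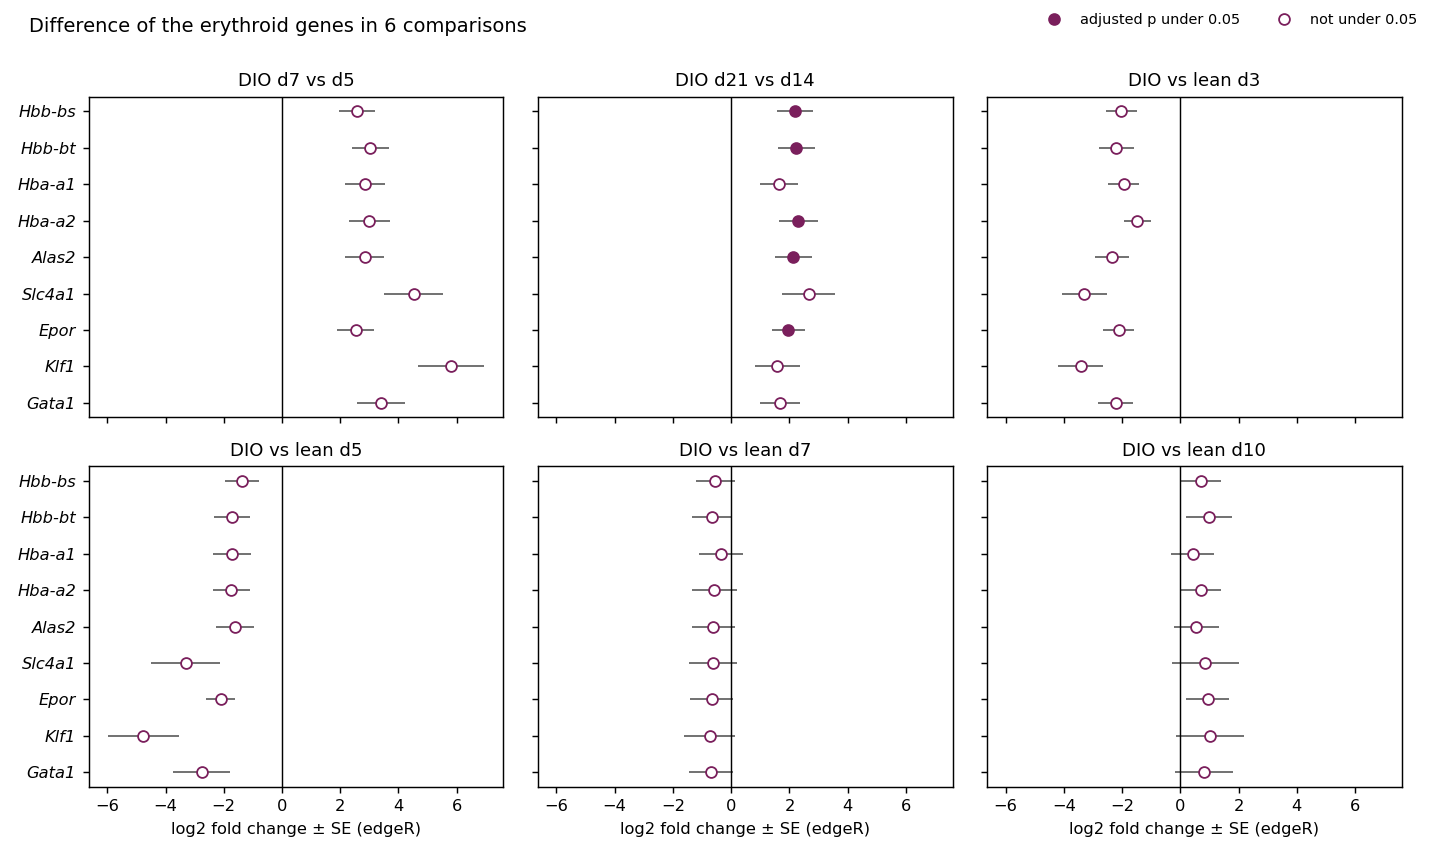
Log2 fold change of each erythroid gene with its standard error (horizontal, edgeR) in 6 comparisons, 4 of them DIO against lean on 1 day, with filled points where the adjusted p was under 0.05. Filled points occur in DIO d21 vs d14 alone, where 5 of 9 are filled, and all 9 lie left of 0 for DIO vs lean on d3, d5 and d7 and right of 0 on d10.

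In lean mice no step was called in the main fit, which left out the replicate number. With that number in the edgeR fit, 5 of 9 were called between the lean days (23.5% of all genes). In d10 against d7 the same fit called 3 of 9 (8.98%). The results that follow are without it. Testing the 4 lean days for any difference among them called 0 of 9 by edgeR and DESeq2 (19% of all genes by edgeR), with adjusted p-values of 0.317 to 0.599 and 0 at an unadjusted p under 0.05. From d3 to d5 the differences were −0.56 to −1.55, from d5 to d7 1.10 to 2.00 and from d7 to d10 −0.73 to −1.79, and the genes called were 0 of 9 in each step, against 0.449%, 0% and 2.73% of all genes. DESeq2 also called 0 in each, and only Hba-a2 in the step to d7 had an unadjusted p under 0.05 (0.0481, 2.22% of all genes in this direction). In that step 5 of 9 genes (Hbb-bs, Hbb-bt, Hba-a2, Alas2 and Klf1) did not overlap (6.67% of all genes). The fitted differences of these steps amounted to 1.47-fold to 4.01-fold, and the highest and the lowest mouse of a lean day differed by 2.62-fold to 13.1-fold (median over the genes). Of 85 tested genes of the erythroid lists, edgeR called 2 in the step from d7 to d10, against 2.73% of all genes. Both were lower on d10, namely Pim1 (−0.85) and Stat5b (−0.76) of erythropoietin signalling.

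Between the diets, d3 gave the clearest separation of the mice, though no gene passed the edgeR test. All 9 fitted differences of DIO from lean calli were below 0, at −2.03 ± 0.53 for Hbb-bs, −2.35 ± 0.59 for Alas2, −3.30 ± 0.78 for Slc4a1, −2.12 ± 0.54 for Epor, −3.43 ± 0.77 for Klf1 and −2.22 ± 0.60 for Gata1, with a median of −2.2. By edgeR 0 were called (0% of all genes), with adjusted p-values of 0.118 to 0.195. An unadjusted p under 0.05 in this direction was found for 9 of 9 (9.09% of all genes). DESeq2 called 5, namely Hbb-bs, Alas2, Slc4a1, Epor and Klf1 (3.65% of all genes). With no filter edgeR called 9, a setting for which the share of all genes is not given here. In 8 of 9 genes all DIO calli were below all lean calli (12% of all genes), the exception being Hba-a2, with 161, 314 and 69.4 CPM in lean and 74.6, 59.7 and 60.2 CPM in DIO calli. Without the third lean callus, the lowest of its group, 7 of 9 were called, all but Epor and Gata1, as were 1.5% of all genes.

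Markers of other blood cells were also lower in each DIO callus of d3 than in each lean callus. The 5 markers of neutrophil precursors summed to 940, 1617 and 673 CPM in lean and to 210, 432 and 206 CPM in DIO calli, and those of eosinophils to 449, 697 and 258 CPM and to 22.2, 74.4 and 56.7 CPM. All 5 neutrophil precursor genes, all 5 neutrophil granule genes and all 3 eosinophil genes were lower without overlap (12% of all genes). By edgeR 0 were called (0% of all genes). At an unadjusted p under 0.05 they were 5, 5 and 3 (9.09% of all genes in this direction), and DESeq2 called 5, 5 and 3 (3.65%). Their part in the difference of the erythroid genes was not tested. Of 85 tested genes of the 8 erythroid lists edgeR called 0, with 54 at an unadjusted p under 0.05, and DESeq2 called 32. The 54 count either direction, whereas the shares of 9.09% and 3.65% are of lower genes alone.

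On d5 all 9 genes again had differences below 0, from −1.38 for Hbb-bs to −4.76 for Klf1. By edgeR 0 were called (1.08% of all genes), with adjusted p-values of 0.0915 to 0.263, 9 had an unadjusted p under 0.05 in this direction (11.2%), and DESeq2 called Epor alone (5.16%). Epor and Klf1 were lower in every DIO callus than in every lean callus (12.3% of all genes), and without the first lean callus Epor was called, as were 1.25% of all genes. On d7 the differences were −0.34 to −0.74, the diets overlapped in all 9, and 0 were called by edgeR (2.32%) or DESeq2 with 0 at an unadjusted p under 0.05. Without the third DIO callus of d7, which was above each lean mouse but 1 in Hbb-bs, 8 of 9 were called lower, all but Gata1, and 5.78% of all genes were called in either direction. On d10 the differences were 0.42 to 1.02 and thus above 0, all 9 overlapped, and 0 were called by either tool (0% by edgeR), with 0 at an unadjusted p under 0.05.

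Whether the difference between the diets changed over d3, d5, d7 and d10 was tested by the interaction of diet and day. It called 0 of 9 (1.65% of all genes), with the smallest adjusted p at 0.209 for Klf1, and Klf1 and Epor had unadjusted p-values of 0.0263 and 0.0454 (18.4% of all genes were under 0.05). DESeq2 called 0. Without the second lean d10 callus Klf1 was called, as were 3.12% of all genes.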

How the data were processed

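RNA was sequenced from 30 fracture calli of lean and DIO mice, 1 mouse per library. The authors prepared stranded poly(A) libraries, sequenced pairs of 53 cycles, trimmed the reads with BBDuk, aligned them to GRCm38 with HISAT2 2.1.0 and counted reads per gene with HTSeq, whose version, strand option and annotation are not given in the sources used here. The deposited values are raw counts without normalization for 43629 genes. Of these, 27445 had at least 1 count and 42462 had a symbol in GENCODE M21, which also gave positions and lengths.

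Further steps used edgeR 4.0.16 under R 4.3.3 and Python 3.11.15. Library sizes were adjusted by TMM factors. For the genes kept by filterByExpr at its defaults (16471 in the 12 lean and 16995 in the 18 DIO libraries), the quasi-likelihood test of edgeR (two-sided) was used, Benjamini-Hochberg adjusted with a threshold of 0.05. Days were compared in 1 fit per diet, diets in 1 fit per day, and the change of the diet difference in 1 fit of 24 libraries. The groups came from the labels, and the 30 pairs of libraries of the same group all differed by more than sampling noise (chi-square per degree of freedom at least 12.8). Same-numbered mice deviated together most in lean d7 against d5, where correlations of their deviations were 0.277, 0.204 and 0.240. This is a hint from the data, not the labels, and the replicate number in the fit changed no call there. The correlations were also all positive in lean d5 against d3 (0.0793, 0.320 and 0.0368) and lean d10 against d7 (0.0769, 0.230 and 0.0394). The same held in DIO d14 against d10 (0.151, 0.0806 and 0.0667).

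Alternatives were DESeq2 1.42.0, RLE and upper-quartile factors, no filter, a fit of all 30 libraries, a block for the replicate number and leaving out each library in turn. For the 8 erythroid lists these were added after seeing the data. The members and all gene lists were chosen with earlier results of these data known. Text named every member, at most 4 genes per list with the smallest adjusted p in DIO d21 against d14, at most 3 called ones in other comparisons, and the 10 genes closest in profile with a mean of at least 1 CPM (log2 CPM with a prior count of 2), of which 2 are not reported here. Other genes were named, after their values were seen, where a count of markers was 5 or fewer. Tests were tried on simulated data first. Intervals for 0 counts (3 counts) cover counting error only.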

Additional observations from a re-analysis of the deposited data

How the results depend on the processing

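Most results kept their direction and their side of the threshold. Under the other settings 699 of 750 values of single genes did so, 44 more passed the threshold, 4 no longer did and 3 changed sign. With 1 library left out the numbers were 1244 of 1350, 47, 15 and 44. The cause of the changes was not tested. The DIO d5 calli had 16400115 to 22248585 counted reads, a depth that sets the upper limit for Klf1 where a library had 0 counts.

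Counts of the 9 genes called moved as follows. With no filter on low counts 9 were called in DIO d7 against d5, 8 in DIO d21 against d14, 9 in DIO against lean on d3 and 2 on d5. The share of all genes called is not given for this setting, so a general rise in calls cannot be told apart. DESeq2 called 8 in DIO d7 against d5, 5 in DIO against lean on d3 and 1 on d5. With the replicate block, that is the replicate number in the fit, 5 were called between lean days (23.5% of all genes) and 3 in lean d10 against d7 (8.98%). In DIO against lean on d3 it called 2, Epor and Gata1 (2.06%). The labels do not pair the mice, and the mean correlation of same-numbered mice was highest in lean d7 against d5 (0.240). Each mouse correlated best with its own number only in lean d7 against d5 and in DIO d14 against d10. The block moved no other count of called genes by more than 1.5 times. In the fit of all 30 libraries 1 was called in DIO d21 against d14. Leaving out 1 library gave 0 to 9 calls in DIO d7 against d5 and in DIO d21 against d14, 0 to 7 in DIO d10 against d7 and in DIO against lean on d3, 0 to 1 on d5, 0 to 8 on d7 and 0 to 1 for the change of the diet difference.

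Klf1 in DIO d10 against d7, at −0.02, was at 0.000399 with no filter, 0.295 with the block and 0.0287 with upper-quartile factors. Changes of sign with 1 library left out occurred in differences that were not called. In DIO d10 against d7 the ranges were −0.15 to 1.71 for Hbb-bs, −0.34 to 1.56 for Hbb-bt, −0.50 to 1.74 for Hba-a1, −0.33 to 1.88 for Hba-a2, −0.38 to 1.79 for Alas2, −0.86 to 1.75 for Slc4a1, −0.47 to 1.70 for Epor, −0.52 to 2.48 for Klf1 and −0.62 to 1.51 for Gata1. In lean d5 against d3 they were −1.5 to 0.0786 for Hba-a2 and −1.53 to 0.0754 for Epor, and in DIO d14 against d10 −0.0647 to 0.98 for Hba-a1 and −0.15 to 0.77 for Hba-a2. In DIO against lean they were −2.06 to 0.17 for Hba-a1 and −2.29 to 8.59e-05 for Hba-a2 on d7, and −0.0721 to 1.96 for Hba-a1 on d10.

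Over the 8 erythroid lists the 47 genes called higher in DIO d21 against d14 became 33 to 54 under the other settings and 27 to 56 with 1 library left out. Of the 10 genes closest in profile, 8 stayed with a prior count of 0.5 and 10 with a minimum of 5 CPM.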

Other observations

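The globin genes of the embryo were almost silent where the adult chains were highest. In DIO calli of d21 Hbb-y, an embryonic beta-type chain, ranged from 0.311 to 0.979 CPM and Hba-x, the embryonic alpha-type chain, from 0.207 to 0.294 CPM. Hbb-bh1 ranged from 0 to 0.0576 CPM in the same calli, and Hbb-bh2 had 0 counts in the DIO calli of d14 and d21. These 4 genes did not pass the filter on low counts in DIO d21 against d14 and were not tested. Values this low rest on a few reads.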
